A study of Mus musculus with 8 samples.

Results

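Microglia, the resident macrophages of the brain, are set apart from other macrophages by a small group of transcription factors, proteins that bind DNA and set which genes a cell transcribes. The factors described here were Sall1, Sall3, Maf, Mef2a, Mef2c, Irf8, Spi1, Runx1 and Cebpa. They are 9 of the 38026 genes in the deposited table, were found there by gene symbol, and all 9 were among the 15262 genes with at least 1 TPM (a transcript level corrected for length and library size) in at least 3 libraries. The table holds 8 RNA-seq libraries of cells from C57BL/6 mice, captured with magnetic beads against CD11b, an integrin subunit of the myeloid lineage as a whole. Tumor-associated microglia and macrophages (TAMs) made up 5 of the libraries, from mice with medulloblastoma, a tumor of the cerebellum, aged 68, 90, 61, 66 and 62 days for replicates 1 to 5. The other 3 held microglia of normal cerebral cortex from mice aged 60 days. The labels give no genotype for the mice of either group and do not say how the tumors arose. The tumor cells and the control cells came from different tissues, so the effect of the tumor and that of the brain region cannot be told apart. The labels do not say whether a library is 1 mouse, and p-values measure the spread between these libraries.

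Spi1, which encodes PU.1, is the lineage factor that all macrophages need, and Runx1, Irf8 and Cebpa act beside it as macrophages form from blood progenitors or yolk sac cells. Sall1 is a zinc-finger repressor that, among brain macrophages, marks microglia, and its loss in mice leaves microglia in a reactive state. Mef2a, Mef2c and Maf bind the enhancers of mature microglia, and their activity is known to depend on signals from the brain, TGF-beta among them.

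TAMs held less RNA of most of these factors than cortex microglia on the TPM scale, and the SALL and MEF2 pairs had the largest differences. Mean Sall1 was 44.4 TPM ± 26.6 (SD, n = 5) in TAMs against 206 ± 15.1 (n = 3) in microglia. Mef2a was at 60.2 ± 16.7 against 174 ± 25.6, and Mef2c at 34.3 ± 9.48 against 103 ± 5.78. Spi1 was at 269.7 ± 25.2 in TAMs and 295 ± 26.4 in microglia, a difference within the spread of the libraries. In bulk libraries, fewer cells of a type and less RNA per cell cannot be told apart.

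At an adjusted p of 0.05 from limma on log2(TPM + 1), 8 of the 9 factors were lower in TAMs and none was higher. In the same fit 56.4% of all tested genes were lower and 8.22% higher, and the median log2 fold change was -0.65 over all genes and -0.99 over the 9 factors. At an unadjusted p below 0.05 the count of higher factors was also 0. Because most genes were listed lower in TAMs, each factor was followed on further scales. The first takes out the median shift between libraries (rescaled TPM, each library divided by the median over genes of its ratio to the average library), which brings the median over all genes to -0.04. There 2 factors were lower, Mef2a and Mef2c, and 1 was higher, Spi1, against 25.1% and 24.6% of all genes. The second scale is the level relative to Spi1 in the same library, which does not depend on how a library was scaled. On it 6 of the other 8 factors were lower and none was higher (at unadjusted p, 7 and 0), against 38.9% and 8.05% of genes. The median there was -0.54 over all genes and -1.14 over these 8 factors, so most of the shift of all genes on TPM remained. A lower ratio to Spi1 does not tell which of the 2 genes moved, and Spi1 itself was higher on rescaled TPM. In the authors' deposited table, whose DESeq2 p-values were adjusted here over 15195 genes, 2 factors were lower and 2 higher, against 21.7% and 30.6%. Mef2a and Mef2c were past the threshold in the same direction on each of these scales. Without TAM replicate 2, a library that stood apart for several factors, 7 factors were lower on TPM (55.2% of genes), 4 on rescaled TPM (25.5%) and 7 relative to Spi1 (33.9%). None was then higher on any of the 3 scales, against 8.62%, 25.3% and 8.90% of genes. The count of 8 lower on TPM fell to 5 without microglia replicate 2, where 39.7% of genes were lower, and to 4 without microglia replicate 3, where 40.9% were. None was higher in either fit, against 7.28% and 6.35% of genes. The 1 higher on rescaled TPM became 2 without microglia replicate 1 and 0 without any of the remaining libraries except TAM replicate 5.

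The separation of the groups was also counted library by library. On TPM every TAM library was below every microglia library for 7 of the 9 factors, as for 49.7% of all tested genes, and the reverse held for 0 factors and 7.97% of genes. On rescaled TPM this was so for 4 factors, the SALL and MEF2 pairs, against 24.6% of genes lower and 24.1% higher. Relative to Spi1 it was so for 7 factors and 32.2% of genes, and the reverse for 0 factors and 7.90%.

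**Figure D1:**
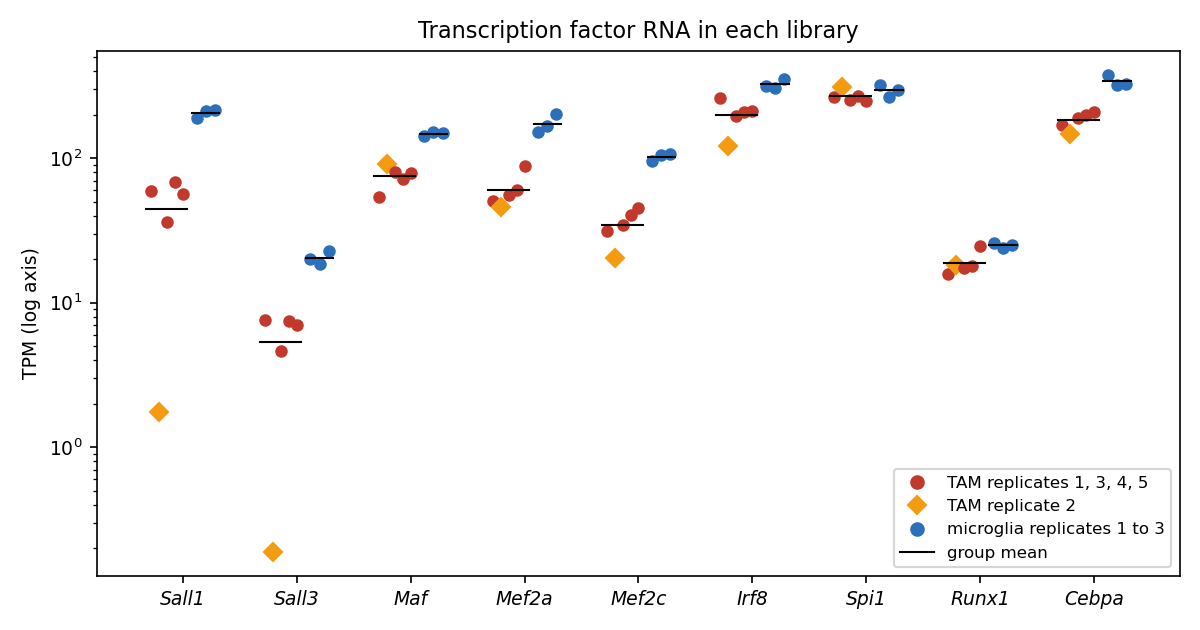
TPM of the 9 factors in each library on a log axis; circles are libraries, the diamond is TAM replicate 2 and bars are group means. Every TAM library lies below every microglia library for 7 factors, while the groups overlap for Spi1 and Runx1. TAM replicate 2 lies far below the other TAM libraries for Sall1 (1.755 TPM) and Sall3 (0.189 TPM).

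The promoters of 4 of these factors are shown, those of Sall1, Mef2a and Mef2c for their large differences between the groups and that of Runx1 for its matches to the motif of its own protein. The sequences are those of RefSeq on GRCm38.p6, from 250 bases before to 50 bases after the upstream-most start, 5′ to 3′ on the strand of the gene. Sall1 lies on the minus strand at chr8:89044113-89044412, Mef2a on the minus strand at chr7:67372809-67373108, Mef2c on the plus strand at chr13:83503784-83504083 and Runx1 on the minus strand at chr16:92826025-92826324. Capitals mark matches to the motifs named after them.
Sall1: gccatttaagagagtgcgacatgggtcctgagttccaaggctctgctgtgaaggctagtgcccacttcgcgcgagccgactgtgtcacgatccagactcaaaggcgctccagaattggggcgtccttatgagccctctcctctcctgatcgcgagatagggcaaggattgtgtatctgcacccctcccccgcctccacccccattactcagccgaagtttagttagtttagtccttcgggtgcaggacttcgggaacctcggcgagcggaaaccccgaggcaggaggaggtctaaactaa
Mef2a: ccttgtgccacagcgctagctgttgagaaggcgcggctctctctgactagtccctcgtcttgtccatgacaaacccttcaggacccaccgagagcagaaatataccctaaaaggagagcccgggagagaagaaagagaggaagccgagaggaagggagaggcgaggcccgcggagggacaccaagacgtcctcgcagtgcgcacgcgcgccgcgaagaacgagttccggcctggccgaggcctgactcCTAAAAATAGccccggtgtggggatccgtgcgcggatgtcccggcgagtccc
Mef2c: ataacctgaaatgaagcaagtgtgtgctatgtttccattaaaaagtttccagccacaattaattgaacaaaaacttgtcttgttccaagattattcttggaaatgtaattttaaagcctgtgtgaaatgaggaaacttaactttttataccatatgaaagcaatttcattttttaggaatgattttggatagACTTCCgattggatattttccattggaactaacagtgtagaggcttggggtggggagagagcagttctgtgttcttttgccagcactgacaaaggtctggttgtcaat
Runx1: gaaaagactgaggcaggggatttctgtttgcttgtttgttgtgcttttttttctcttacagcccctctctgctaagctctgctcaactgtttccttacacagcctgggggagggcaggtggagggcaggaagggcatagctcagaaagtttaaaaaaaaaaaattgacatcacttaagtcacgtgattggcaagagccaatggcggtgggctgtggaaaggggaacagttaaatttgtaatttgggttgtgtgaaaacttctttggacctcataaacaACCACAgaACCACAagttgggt
The search covered 12 RefSeq promoters of 6 of the 9 factors, and both strands of each were searched for 6 motifs. No promoter of Maf, Sall3 or Spi1 was used, so the matches and their absence describe the searched promoters only. The MEF2 motif, CTA and TAG parted by NNNN, was found in Mef2a, beginning 2 bases before the start, and 3.69% of all 32851 promoters hold it. The core GGAAGT of PU.1 and other ETS factors was found in Mef2c, in the promoter shown on the opposite strand and 58 bases before the start, and in 1 other promoter of Sall1 that is not shown. It is held by 23.8% of promoters. The RUNX core TGTGGT was found at 2 places in the Runx1 promoter, 28 and 36 bases after the start, again on the opposite strand, and 16.8% of promoters hold it. The motifs TTGCNNAA (C/EBP), TGCTGAC (MAF) and GAAA repeated after NN (IRF) matched none of the 12, against 10.8%, 4.67% and 3.44% of all promoters. The motifs were not checked for overlap with other motifs, and a match describes letters in this window.

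Sall1 is the factor that most sharply parts microglia from other brain macrophages. The gene lies on chromosome 8, from 89027248 to 89044162 on mm10. Its TPM was 58.9, 1.755, 36.0, 68.6 and 56.7 in TAM replicates 1 to 5, against 189, 213 and 217 in the microglia libraries. All 5 TAM libraries were below all 3 microglia libraries, and TAM replicate 2 was far below the other 4. Its log2 fold change was -2.78 ± 0.98 (SE; limma adjusted p = 0.0346), a 4.65-fold difference between the means. It was -2.64 ± 0.98 relative to Spi1 (adjusted p = 0.0486). Rescaled TPM gave -2.09 ± 1.02 (adjusted p = 0.123). The calls of Sall1 on TPM and relative to Spi1 were lost without TAM replicate 3 (adjusted p = 0.0530 and 0.0666), without any 1 of the microglia libraries (0.0697 to 0.0931 and 0.0781 to 0.146) and with no filter on low values (0.0566 and 0.0900). The call on TPM was also lost when the 20 most abundant genes were left out of the scaling (adjusted p = 0.0690). Relative to Spi1 the call was also lost with a pseudocount of 0.1 (adjusted p = 0.0663) and with no intensity trend (adjusted p = 0.0555). TAM replicate 2 widened the error: without it the value was -1.92 ± 0.20 on TPM (adjusted p = 0.000361), -1.22 on rescaled TPM (adjusted p = 0.00489) and -1.74 relative to Spi1 (adjusted p = 0.000557). The other 4 TAM libraries had a mean of 55.1 ± 13.7 TPM, so that microglia held 3.75 times as much. In the authors' deposited table the log2 fold change of Sall1 was -1.28 (adjusted p = 0.110).

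Sall3, a second member of the same zinc-finger family, was expressed at a lower level. Its TPM was 7.59, 0.189, 4.62, 7.496 and 6.999 in TAMs 1 to 5, and 20.1, 18.5 and 23.0 in microglia. The libraries stood in a similar order to that for Sall1, with TAM replicate 2 lowest, then TAM replicate 3, then the other TAM libraries, then microglia. Sall3 had a log2 fold change of -2.03 ± 0.62 (limma adjusted p = 0.0199) on TPM, -1.42 (adjusted p = 0.118) on rescaled TPM and -1.89 (adjusted p = 0.0331) relative to Spi1. Without TAM replicate 2 these became -1.5 (adjusted p = 0.000702), -0.85 (adjusted p = 0.0158) and -1.33 (adjusted p = 0.00223). The call of Sall3 was lost on TPM without microglia replicate 2 or 3 (adjusted p = 0.0547 and 0.0655), with a pseudocount of 0.1 (0.0604) and when the 20 most abundant genes were left out of the scaling (0.0517). Relative to Spi1 it was lost without TAM replicate 3 (adjusted p = 0.0525) or any 1 of the microglia libraries (0.0567 to 0.103), with no filter on low values (0.0636) and with a pseudocount of 0.1 (0.0853). The authors' deposited table gave Sall3 -1.03 (adjusted p = 0.218). Sall1 stood at 7.76 to 9.30 times the level of Sall3 in TAMs and at 9.42 to 11.6 times in microglia, ranges that did not overlap but lay close together over levels that differed more than 100-fold. The third member of the family tested, Sall2, was at 1.09 to 2.22 TPM in TAMs and 5.93 to 7.33 in microglia, with a log2 fold change of -1.60 on TPM (limma adjusted p = 0.000312) and of -1.05 on rescaled TPM (adjusted p = 0.000752). For Sall2, TAM replicate 2 was at 1.38 TPM, inside the range of the other TAM libraries. Sall4 did not pass the filter on low values.

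**Figure D2:**
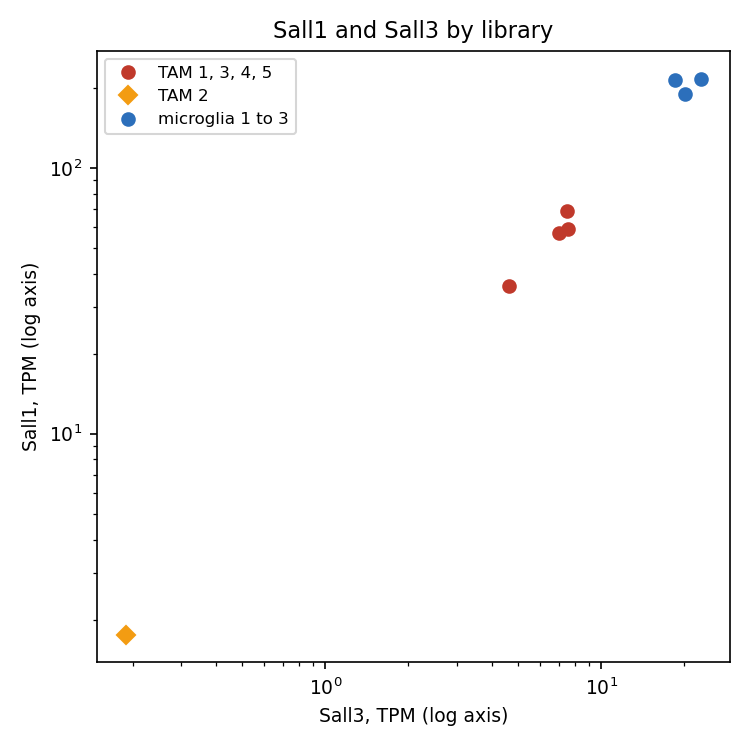
Sall1 against Sall3 in each library, both in TPM on log axes; circles are TAM replicates 1, 3, 4 and 5 and microglia, the diamond is TAM replicate 2. The libraries lie along a diagonal, from TAM replicate 2 (0.189 and 1.755 TPM) to the microglia libraries (18.5 to 23.0 and 189 to 217 TPM).

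TAM replicate 2 differed from the other TAM libraries in further genes. It has the highest age label, 90 days, and with age as a covariate the log2 fold change of Sall1 was -1.35 (limma adjusted p = 0.0367) on TPM and -1.13 (adjusted p = 0.0747) relative to Spi1. That of Sall3 was then -1.15 (adjusted p = 0.0227) and -0.96 (adjusted p = 0.0576). The 16 genes of resting microglia summed to 2755 TPM in it, 7669 to 10690 in the remaining TAMs and 19280 to 22560 in microglia. Of the monocyte-derived macrophage markers all 10 were at 1 TPM or more in every library, with sums of 10340 in TAM replicate 2, 5477 to 11880 in the other TAM libraries and 1002 to 1341 in microglia. Of these 10 markers 3 were higher and 1 lower in TAMs on TPM (8.22% and 56.4% of all genes), and most of the sum was Lyz2, a lysozyme gene, at 5005 to 11600 TPM in TAMs and 574.5 to 986 in microglia. Ccr2, the chemokine receptor of inflammatory monocytes, was at 48.3 TPM in TAM replicate 2, 2.62 to 17.0 in the other TAMs and 5.53 to 6.25 in microglia. The groups overlapped, and its log2 fold change was 1.205 (limma adjusted p = 0.149). It was 0.79 (adjusted p = 0.240) without TAM replicate 2 and 1.73 (adjusted p = 0.00556) without TAM replicate 5, the TAM library lowest for Ccr2. The sum of 8 border macrophage markers was 950.1 in TAM replicate 2, 229.5 to 418 in the other TAMs and 948 to 1346 in microglia, all 8 at 1 TPM or more throughout. Of these 8, 6 were lower and 0 higher in TAMs on TPM, and all 8 were lower without TAM replicate 2 (55.2% of genes). On rescaled TPM 4 were lower (25.1% of genes), which became 1 without microglia replicate 1, 2 without microglia replicate 2 and 7 without TAM replicate 2. Of 8 neutrophil markers 7 were tested, and 3 were higher and 2 lower in TAMs on TPM, the 2 becoming 1 without any 1 library other than TAM replicate 2. Those higher were S100a8 and S100a9, whose proteins form calprotectin, and Retnlg, which encodes a resistin-like protein. S100a8 was at 147 TPM in TAM replicate 2, 29.1 to 78.9 in the other TAMs and 4.69 to 12.7 in microglia (2.85, limma adjusted p = 0.00178). S100a9 was at 245 TPM in TAM replicate 2, 24.5 to 102 in the other TAMs and 6.51 to 15.3 in microglia (2.73, adjusted p = 0.00707). Retnlg was at 132 TPM in TAM replicate 2, 6.67 to 16.2 in the other TAMs and 0.627 to 1.68 in microglia (3.18, adjusted p = 0.0100). All 5 TAM libraries were thus above all 3 microglia libraries for these 3 markers, as for 7.97% of all tested genes, with TAM replicate 2 highest. The calls held without that library (adjusted p = 0.00171, 0.00624 and 0.000635). The 2 markers lower on TPM were Csf3r (-1.31, limma adjusted p = 0.00181) and Mmp9 (-1.07, adjusted p = 0.0496). Camp and Ngp did not pass (0.102, adjusted p = 0.872, and 0.024, adjusted p = 0.969). Ly6g, which neutrophils express at their surface, was at 0 to 0.795 TPM in all libraries and was not tested. The sum of the 8 markers was 654 in TAM replicate 2, 244 to 373 in the other TAMs and 431 to 479 in microglia, where Csf3r, a receptor gene, made up 389 to 447 of it. The part of any of these cells in the results for the 9 factors was not tested. Of all tested genes, 2.99% had a fold between the other 4 TAM libraries and TAM replicate 2 at least as large as the 31.4-fold of Sall1.

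Mef2a and Mef2c encode MADS-box factors that are active in neurons, muscle and myeloid cells. Mef2a spans 67231163 to 67372858 on chromosome 7 of mm10 and Mef2c 83504034 to 83667080 on chromosome 13. Mef2a was at 50.8, 46.1, 55.4, 59.9 and 88.6 TPM in TAMs 1 to 5 and at 152.5, 166 and 202 in microglia. Every TAM library was below every microglia library, and TAM replicate 5 was the highest TAM. That library also had the highest sums among TAMs of 8 neuron markers (23.0 TPM against 7.12 to 11.3, with 15.4 to 52.6 in microglia) and of 10 markers of the granule lineage and Hedgehog tumors (73.4 against 16.1 to 21.9, with 19.5 to 66.8 in microglia). All 10 of the latter were at 1 TPM or more in it, against 2 to 8 in the other TAMs and 4 to 5 in microglia, and their part in the results was not tested. On the log2 scale the fold change of Mef2a was -1.54 ± 0.20 (limma adjusted p = 0.000491) on TPM, -0.83 ± 0.14 (adjusted p = 0.00232) on rescaled TPM and -1.41 ± 0.26 (adjusted p = 0.00273) relative to Spi1. The authors' deposited table gave Mef2a -0.73 (adjusted p = 0.000125).

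Mef2c, which restrains the inflammatory response of microglia, was at 31.5, 20.2, 34.3, 40.7 and 44.9 TPM in TAMs 1 to 5 and at 96.0, 105.8 and 106.3 in microglia. Here TAM replicate 2 was the lowest library, by less than 2-fold. On the log2 scale the fold change of Mef2c was -1.60 ± 0.23 (limma adjusted p = 0.000684) on TPM, -0.89 ± 0.21 (adjusted p = 0.00885) on rescaled TPM and -1.47 ± 0.29 (adjusted p = 0.00384) relative to Spi1. The authors' deposited table gave Mef2c -0.76 (adjusted p = 0.00471). Both MEF2 genes stayed past the threshold on TPM, on rescaled TPM and relative to Spi1 when any 1 library was left out. The ratio of Mef2a to Mef2c was 1.47 to 2.28 in TAMs and 1.57 to 1.90 in microglia, with overlap. Mef2d, the other family member tested, was at 39.2 to 52.4 TPM in TAMs and 73.7 to 113.5 in microglia, with a log2 fold change of -1.08 (limma adjusted p = 0.00068). Its value on rescaled TPM was -0.37 (adjusted p = 0.0150). Mef2b did not pass the filter.

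The class IIa histone deacetylases bind MEF2 factors and silence their targets. All 4 were lower in TAMs on TPM, as were 56.4% of all genes (median -0.85 against -0.65), and none passed in either direction on rescaled TPM, where 25.1% were lower and 24.6% higher (median -0.18 against -0.04). Hdac7 fell most, from 7.92, 35.1 and 29.4 TPM in microglia to 1.57 to 15.4 in TAMs (-2.07, limma adjusted p = 0.0220). The summed TPM of 8 endothelial markers stood in the same order in those microglia libraries, at 545, 1748 and 1302, and was 13.2 to 80.4 in TAMs, and its part in Hdac7 was not tested. Hdac5, the most abundant, was at 61.4 to 78.5 TPM in TAMs and 112 to 138 in microglia (-0.88, adjusted p = 0.000474). The count of 4 became 2 without microglia replicate 2 or 3, and Hdac7 was then not past the threshold (adjusted p = 0.0953 and 0.0843). On rescaled TPM 1 was lower without TAM replicate 2 or without microglia replicate 1.

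Maf, a basic leucine zipper factor of mature tissue macrophages (chromosome 8, 115682942 to 115707794), was at 53.5, 91.2, 80.7, 72.2 and 79.1 TPM in TAMs 1 to 5 and at 141.5, 153 and 150.1 in microglia. The groups did not overlap, and TAM replicate 2, lowest for the SALL pair, was the highest TAM library for Maf. Maf had a log2 fold change of -0.99 ± 0.16 (limma adjusted p = 0.00119) on TPM and -0.86 ± 0.18 (adjusted p = 0.00521) relative to Spi1. On rescaled TPM it was -0.27 ± 0.16 (adjusted p = 0.196), and the groups overlapped. The authors' deposited table gave Maf -0.15 (adjusted p = 0.571). Among its relatives Maff, a small MAF protein without an activation domain, was at 17.9 to 35.2 TPM in TAMs and 91.3 to 121 in microglia (-2.08, limma adjusted p = 0.000195). Mafg and Mafk, also small MAF proteins, had log2 fold changes of -1.59 and -1.38 (adjusted p = 0.000317 and 0.000262).

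**Figure D3:**
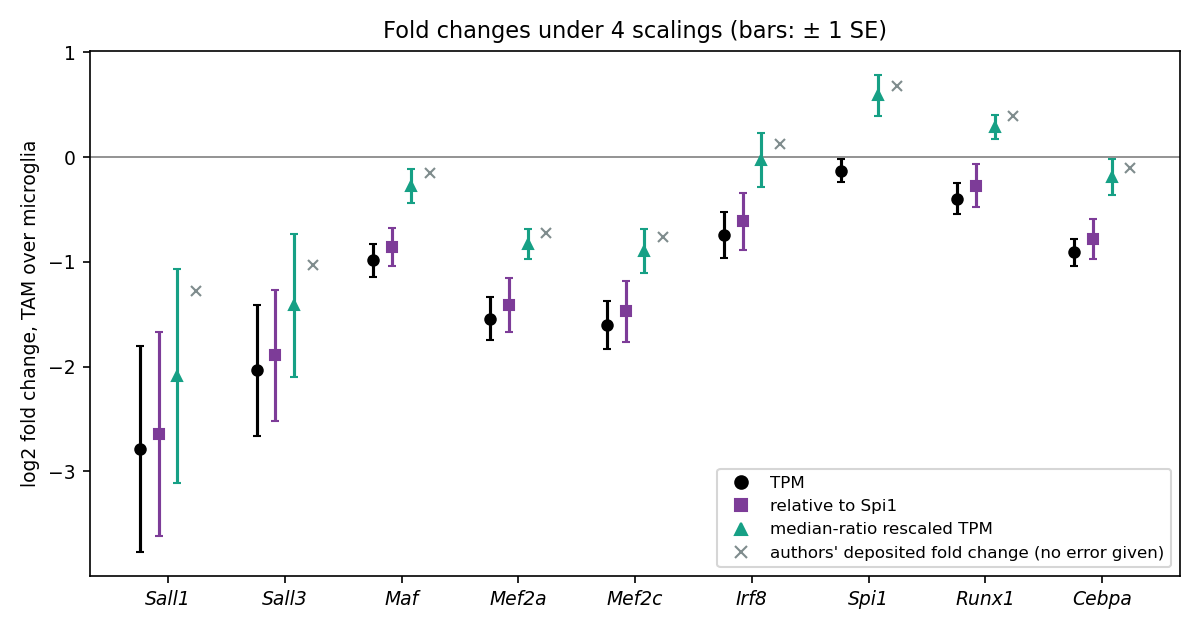
log2 fold change of the 9 factors, TAMs over microglia, on TPM, relative to Spi1, on rescaled TPM and in the authors' deposited table; bars are ± 1 SE and the crosses have none. Mef2a and Mef2c lie below 0 on every scale, while Spi1 moves from -0.13 on TPM to 0.59 on rescaled TPM and Runx1 from -0.40 to 0.29.

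Spi1, on chromosome 2 (91082390 to 91115756), was at 266.6, 312, 253, 270.0 and 247 TPM in TAMs 1 to 5 and at 319.5, 267 and 298 in microglia. The groups overlapped, and TAM replicate 2 was the highest TAM library. Spi1 had a log2 fold change of -0.13 ± 0.11 (limma adjusted p = 0.305) on TPM and 0.59 ± 0.20 (adjusted p = 0.0391) on rescaled TPM. The call on rescaled TPM was lost when any 1 library other than TAM replicate 5 or microglia replicate 1 was left out. The authors' deposited table gave Spi1 0.68 (adjusted p = 0.0137). The direction of Spi1 therefore depended on the scale. Of its relatives, Spic, the ETS factor of red pulp macrophages in the spleen, was at 37.3 TPM in TAM replicate 2, 4.26 to 14.7 in the other TAMs and 2.67 to 3.52 in microglia. All TAM libraries were above all microglia libraries for Spic, with a log2 fold change of 1.502 on TPM (limma adjusted p = 0.0564) and of 2.06 on rescaled TPM (adjusted p = 0.0231). On TPM the call of Spic was gained without TAM replicate 1 (adjusted p = 0.0278) or TAM replicate 4 (adjusted p = 0.0329). On rescaled TPM it was lost without any 1 of the microglia libraries. Spib did not pass the filter.

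Irf8, the partner of PU.1 that microglia need for their normal development (chromosome 8, 120736358 to 120756694), was at 261, 121, 195, 209 and 212 TPM in TAMs 1 to 5 and at 314, 308 and 356 in microglia. The groups did not overlap, and TAM replicate 2 was the lowest. Irf8 had a log2 fold change of -0.74 ± 0.22 (limma adjusted p = 0.0169) on TPM, -0.03 ± 0.26 (adjusted p = 0.936) on rescaled TPM and -0.61 ± 0.27 (adjusted p = 0.0859) relative to Spi1. Without TAM replicate 2 the last was -0.39 (adjusted p = 0.0456). Without microglia replicate 3 the value on TPM was -0.68 (adjusted p = 0.0664), and it was -0.405 (adjusted p = 0.163) when the 20 most abundant genes were left out of the scaling. The authors' deposited table gave Irf8 0.12 (adjusted p = 0.750). The ratio of Irf8 to Spi1 was 0.388 in TAM replicate 2, 0.770 to 0.978 in the other TAMs and 0.982 to 1.19 in microglia.

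Of the other 8 interferon regulatory factors tested, 6 were lower in TAMs on TPM and none was higher, against 56.4% and 8.22% of all genes. On rescaled TPM 4 were lower and 1 was higher, against 25.1% and 24.6%. Irf4, known from alternatively activated macrophages and lymphocytes, fell most, from 12.2 to 20.5 TPM in microglia to 2.20 to 3.99 in TAMs (-2.11, limma adjusted p = 0.000168). Irf5, a mediator of Toll-like receptor signals, was at 101 to 138 TPM in TAMs and 270.4 to 281 in microglia (-1.19, adjusted p = 0.000106). Irf1, a target of interferon gamma, had a log2 fold change of -1.42 (adjusted p = 0.000317). Irf7, the amplifier of type I interferon, was at 229.7, 17.1, 16.7, 63.7 and 80.6 TPM in TAMs 1 to 5 and at 11.0, 15.7 and 15.4 in microglia. For Irf7 TAM replicate 1 was the highest and TAM replicates 2 and 3 were close to microglia. Its log2 fold change was 1.81 (limma adjusted p = 0.0738) on TPM and 2.49 (adjusted p = 0.0353) on rescaled TPM. Irf7 passed on TPM without TAM replicate 2 (adjusted p = 0.0329) or TAM replicate 3 (adjusted p = 0.0349). On rescaled TPM the count of 1 higher became 0 without TAM replicate 4, without TAM replicate 5 or without any 1 of the microglia libraries, and the count of 4 lower became 2 without microglia replicate 1.

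Runx1, which with its partner Cbfb starts the blood lineage (chromosome 16, 92601466 to 92826149), was at 15.7, 18.3, 17.5, 18.05 and 24.8 TPM in TAMs 1 to 5 and at 25.7, 23.9 and 25.0 in microglia. TAM replicate 5 lay within the microglia range and the other 4 TAM libraries lay below it. Among the TAM libraries replicate 5 also had the highest sums of neuron and granule lineage markers, and their part in Runx1 was not tested. Runx1 had a log2 fold change of -0.40 ± 0.15 (limma adjusted p = 0.0424) on TPM, 0.29 ± 0.12 (adjusted p = 0.0708) on rescaled TPM and -0.27 ± 0.20 (adjusted p = 0.277) relative to Spi1. The call on TPM was lost without any 1 library other than TAM replicate 5, with no filter on low values (adjusted p = 0.0507), with no intensity trend (0.0511), with age as a covariate (0.111) and under each other scaling of TPM, and without that library the value relative to Spi1 was -0.40 (adjusted p = 0.0445). The authors' deposited table gave Runx1 0.39 (adjusted p = 0.0405). Cbfb changed sign in the same way, from -0.34 on TPM (limma adjusted p = 0.0406) to 0.36 on the rescaled values (adjusted p = 0.0495). The call of Cbfb on TPM was lost without TAM replicate 1, 3 or 4 or any 1 of the microglia libraries, and on rescaled TPM without any 1 library other than TAM replicate 5 or microglia replicate 1.

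Runx3, the RUNX factor of T cells and of Langerhans cells, the macrophages of the skin, differed most among the relatives of the 9 factors plotted here. It was at 11.9, 25.1, 19.97, 15.2 and 19.4 TPM in TAMs 1 to 5 and at 1.47, 1.87 and 1.07 in microglia. The 5 TAM libraries were all above the microglia libraries on both scales. The log2 fold change of Runx3 was 2.94 ± 0.24 (limma adjusted p = 6.91e-05) on TPM, 3.44 (adjusted p = 4.54e-05) on rescaled TPM and 3.03 (adjusted p = 8.13e-05) relative to Spi1. The authors' deposited table gave Runx3 4.4. T and NK cells also express Runx3, and the summed TPM of 8 of their markers was 3.09 to 6.31 in TAMs and 4.92 to 10.6 in microglia, with 0 to 3 and 2 to 4 of the 8 at 1 TPM or more. Runx2, the RUNX factor of bone, was at 6.12 TPM in TAM replicate 2, 1.65 to 2.61 in the other TAMs and 0.584 to 1.56 in microglia (0.78, limma adjusted p = 0.0799). On TPM 1 of these 3 genes (Runx2, Runx3 and Cbfb) was higher and 1 lower, against 8.22% and 56.4% of all genes. On rescaled TPM all 3 were higher, as were 24.6% of all genes. The count of 3 became 1 without microglia replicate 2 or 3, with Runx3 past the threshold.

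Cebpa, the basic leucine zipper factor that drives myeloid commitment (chromosome 7, 35119293 to 35121926), was at 169.6, 147, 191, 199 and 209.5 TPM in TAMs 1 to 5 and at 379, 324 and 327 in microglia. It had the highest level of the 9 factors in microglia, and all TAM libraries lay below all microglia libraries. The log2 fold change was -0.91 ± 0.13 (limma adjusted p = 0.00071) on TPM and -0.78 ± 0.19 (adjusted p = 0.00967) relative to Spi1. On rescaled TPM it was -0.19 ± 0.17 (adjusted p = 0.375), with overlap between the groups. The authors' deposited table gave Cebpa -0.11 (adjusted p = 0.712). The ratio of Cebpa to Spi1 was 0.471 to 0.848 in TAMs and 1.10 to 1.21 in microglia. All 4 other C/EBP genes tested were lower on TPM, as were 56.4% of all genes, and 2 of them on rescaled TPM, against 25.1%. Cebpd, an early response gene of inflammation, fell most, from 74.6 to 93.6 TPM in microglia to 14.7 to 34.3 in TAMs (-2.02, limma adjusted p = 0.000366). Cebpb, the C/EBP factor of activated macrophages, was at 89.6 to 154 TPM in TAMs and 221 to 286 in microglia (-1.13, adjusted p = 0.00113), and at -0.42 (adjusted p = 0.140) on rescaled TPM.

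**Figure D4:**
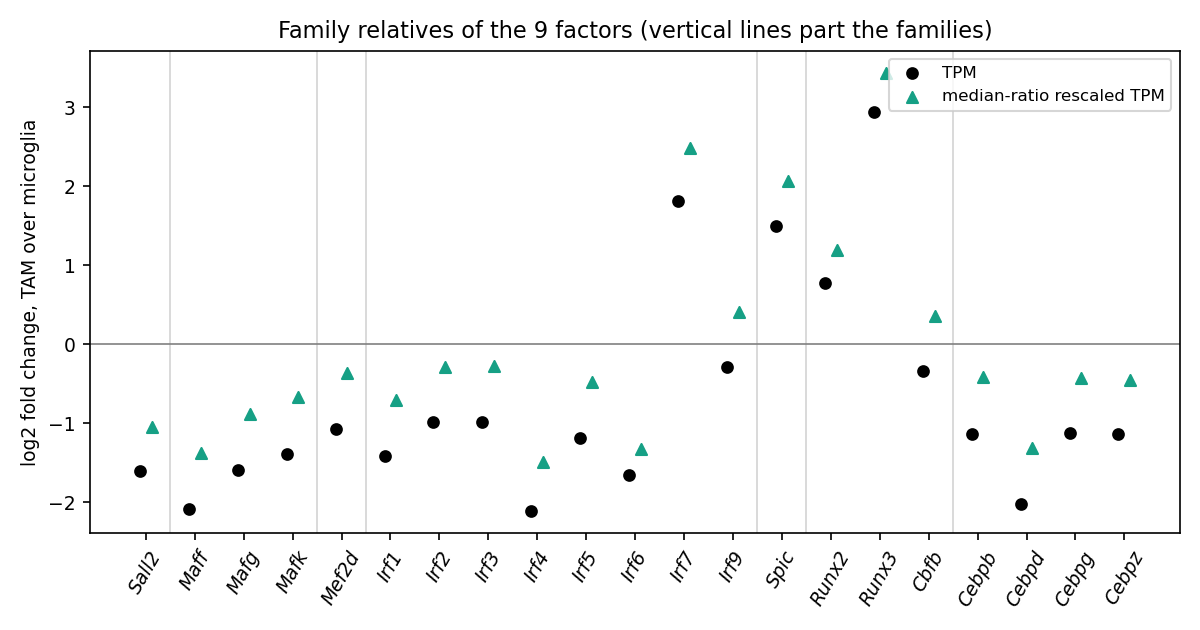
log2 fold change, TAMs over microglia, of tested relatives of the 9 factors on TPM (circles) and rescaled TPM (triangles), with vertical lines between families. Runx3 lies highest (2.94 and 3.44), Maff, Irf4 and Cebpd lie near -2 on TPM, and Irf9 and Cbfb change sign with the scale.

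The order of the levels differed between the groups. In microglia the order of mean TPM was Cebpa, Irf8, Spi1, Sall1, Mef2a, Maf, Mef2c, Runx1 and Sall3. There the ranges of the neighbours Cebpa and Irf8, Irf8 and Spi1, Sall1 and Mef2a, and Mef2a and Maf overlapped. In TAMs the order was Spi1, Irf8, Cebpa, Maf, Mef2a, Sall1, Mef2c, Runx1 and Sall3, and the ranges of all neighbours overlapped except those of Cebpa and Maf and of Runx1 and Sall3. Sall1 was thus 4th in microglia and 6th in TAMs. As a percentage of Spi1 in the same library, Sall1 was 59.2% to 79.9% in microglia, 14.2% to 25.4% in 4 TAM libraries and 0.563% in TAM replicate 2. Mef2c was 30.1% to 39.6% of Spi1 in microglia and 6.49% to 18.2% in TAMs. Maf was 44.3% to 57.3% in microglia and 20.1% to 32.0% in TAMs.

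**Figure D5:**
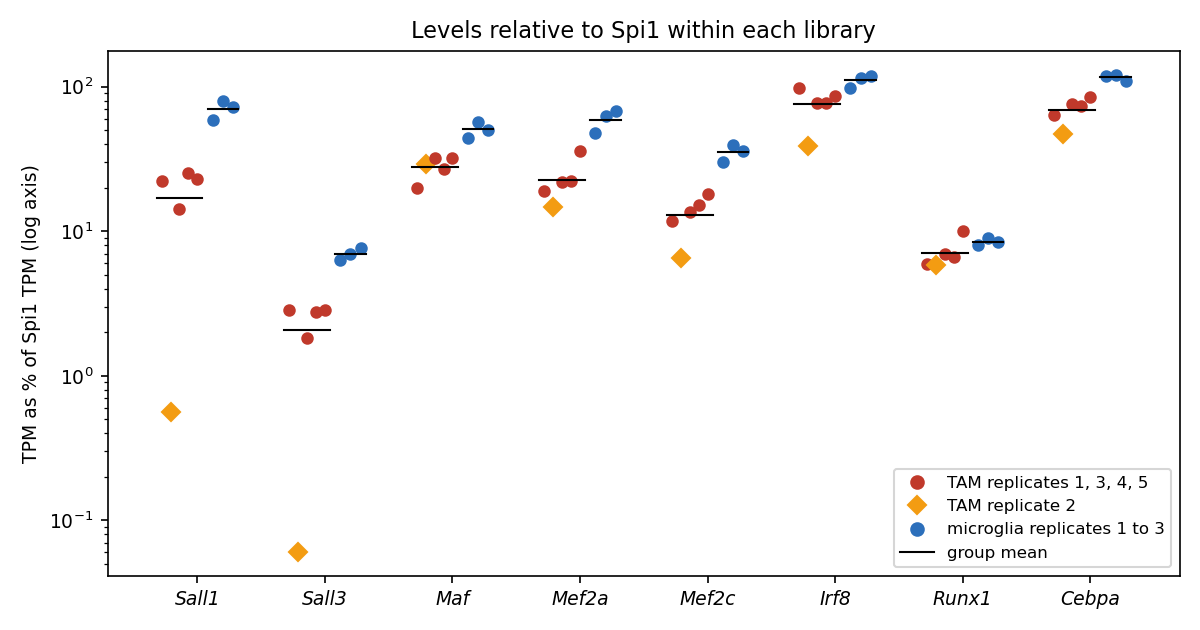
TPM of 8 factors as a percentage of Spi1 TPM in the same library, on a log axis; circles are libraries, the diamond is TAM replicate 2 and bars are group means. The groups are apart for every factor but Runx1, with Sall1 at 59.2% to 79.9% in microglia and at most 25.4% in TAMs.

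Likeness between profiles was measured as the root mean square difference of log2(TPM + 1) over the 8 libraries, each gene centred on its mean, among 10596 genes with a mean of at least 5 TPM. It is a description over libraries that share 2 groups. Nearest to Sall1 were Sparc (0.406), Mlxipl (0.441) and Tmem100 (0.459), and nearest to Sall3 were Golm1 (0.263), Asap3 (0.272) and Tmem100 (0.281). All 5 had their lowest value in TAM replicate 2. Sparc, which encodes a secreted matrix glycoprotein, was at 45.7 TPM there, 1134 to 2288 in the other TAMs and 3239 to 3503 in microglia. Mlxipl, which encodes the glucose-responsive factor ChREBP, was at 1.76 TPM there, 23.2 to 44.5 in the other TAMs and 220.4 to 271 in microglia.

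Among the 9 factors themselves the closest pair was Mef2a and Mef2c (0.193), followed by Spi1 and Runx1 (0.255). Nearest to Mef2c were Prkd3 (0.0682), Dip2b (0.103) and Mertk (0.107), the last a receptor for the uptake of dying cells. Nearest to Mef2a were Rad9b (0.0858), Jmjd1c (0.0888) and Dip2b (0.106). Nearest to Spi1 were Lyn (0.0594), a kinase of myeloid receptors, Zbtb7b (0.0728) and Fam174a (0.0794). Nearest to Irf8 were Fam134b (0.139), Ccpg1 (0.139) and 2210015D19Rik (0.140), and nearest to Maf were D930015E06Rik (0.0849), Nup160 (0.0910) and Asxl1 (0.108). Nearest to Runx1 were Ssbp4 (0.0549), Eif2b3 (0.0617) and Dis3l2 (0.0631), and nearest to Cebpa were Taf7 (0.0806), Spata5l1 (0.0953) and Prss36 (0.0962).

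Sall1 is known to recruit the NuRD complex, which removes histone acetyl groups and moves nucleosomes. All 10 of its subunits were tested, and 9 were lower in TAMs on TPM, as were 56.4% of all genes (median -0.76 against -0.65). On rescaled TPM 1 was lower and 2 were higher, against 25.1% and 24.6% (median -0.05 against -0.04). Gatad2b, a scaffold subunit, fell most on TPM (-1.08, limma adjusted p = 0.00201) and was the one still lower on rescaled TPM (-0.40, adjusted p = 0.0112). It was at 10.9 to 18.8 TPM in TAMs and 23.1 to 33.1 in microglia. Mta2, another scaffold subunit, was at 48.8 to 63.8 TPM in TAMs and 98.4 to 117.5 in microglia (-0.95, adjusted p = 0.000288). On rescaled TPM the count of 2 higher became 1 without TAM replicate 1, 3 or 4, 4 without TAM replicate 5 and 0 without any 1 of the microglia libraries. The count of 1 lower became 2 without TAM replicate 2 or microglia replicate 2.

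Signals known to keep microglia in place in the brain include TGF-beta, CSF1 and IL-34. Of 9 such genes and receptors 8 were tested, and 5 were lower and none higher on TPM, against 56.4% and 8.22% of all genes (median -0.70 against -0.65). On rescaled TPM 3 were lower and 1 was higher, against 25.1% and 24.6%. Csf1r, the receptor on which microglia depend for survival, was at 725 to 1220.0 TPM in TAMs and 3119 to 3417 in microglia (-1.70, limma adjusted p = 0.000166). Tgfbr1, a TGF-beta receptor chain, was at 92.8 to 149 TPM in TAMs and 436 to 495 in microglia (-1.85, adjusted p = 6.44e-05). Both stayed lower on rescaled TPM, at -0.98 (adjusted p = 0.00862) and -1.14 (adjusted p = 0.000717). Il34, which encodes a ligand of the Csf1r receptor and is expressed mainly by neurons, was at 0.0931 to 1.72 TPM in TAMs. In microglia it was at 8.76, 27.6 and 25.3 TPM (-3.65, adjusted p = 0.000296). Markers of other brain cells were also higher in the cortex libraries. The sum of 8 astrocyte markers was 14.2 to 69.9 TPM in TAMs and 132.5 to 914 in microglia, and that of 8 endothelial markers 13.2 to 80.4 and 545 to 1748, and their part in Il34 was not tested. The 1 higher on rescaled TPM was Tgfbr2, another TGF-beta receptor chain (0.53, limma adjusted p = 0.0170). Tgfbr2 was at 125.0 to 147.5 TPM in TAMs and 148.2 to 161.4 in microglia (-0.18 on TPM, adjusted p = 0.0893). Its call on rescaled TPM was lost without microglia replicate 2 or 3.

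The 16 genes of resting microglia, several of them known targets of Sall1, gave 12 lower and none higher on TPM (median -2.14) and 10 lower on rescaled TPM (median -1.42), against 56.4%, 8.22% and 25.1% of all genes. Slc2a5, a fructose transporter, fell most, from 377 to 407 TPM in microglia to 0.322 to 6.87 in TAMs (-6.60, limma adjusted p = 4.87e-05). Tmem119, a membrane protein used to identify microglia, was at 53.5 to 149.8 TPM in TAMs and 1164 to 1289 in microglia (-3.49, adjusted p = 9.05e-05). P2ry12, the ADP receptor of ramified microglia, was at 65.0 TPM in TAM replicate 2, 268 to 382 in the other TAMs and 1972 to 2586 in microglia (-3.25, adjusted p = 0.00134). TAM replicate 2 was the lowest library for all 3.

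Of 40 further transcription factors of macrophages and their progenitors, 38 were tested. On TPM 24 were lower and 1 higher in TAMs, against 56.4% and 8.22% of all genes, and on rescaled TPM 9 were lower and 11 higher, close to the shares over all genes (25.1% and 24.6%). Rxra, the retinoid receptor that pairs with LXR and PPAR factors, was the one higher on TPM, at 43.0 to 63.5 TPM in TAMs and 34.9 to 37.9 in microglia (0.41, limma adjusted p = 0.0325). Its log2 fold change was 1.12 on rescaled TPM (adjusted p = 0.000162). The call of Rxra on TPM was lost without TAM replicate 3 or any 1 of the microglia libraries. The count of 1 higher was 3 without TAM replicate 1, 4 without TAM replicate 2, 2 without TAM replicate 5 and 0 without microglia replicate 1 or 3. On rescaled TPM the 11 higher became 7 without microglia replicate 1 and 4 without microglia replicate 2 or 3.

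Id3, an inhibitor of E-box factors that is induced by TGF-beta and BMP signals, fell most, from 45.3, 134 and 131 TPM in microglia to 8.72 to 21.6 in TAMs (-2.81, limma adjusted p = 0.000698). Microglia replicate 1, lowest of its group for Id3, was also lowest for the astrocyte markers (132.5, 914 and 624 TPM) and the endothelial markers (545, 1748 and 1302), both far lower in TAMs, and their part in Id3 was not tested. Smad4 and Smad3, which carry TGF-beta signals to DNA, had log2 fold changes of -1.47 (adjusted p = 0.000278) and -1.23 (adjusted p = 0.00175) on TPM. On rescaled TPM Smad4 was at -0.77 (adjusted p = 0.00107) and Smad3 at -0.53 (adjusted p = 0.102). Ikzf1 and Hhex, factors of blood progenitors that microglia retain, were at -1.32 (adjusted p = 0.000237) and -1.29 (adjusted p = 0.000312), and both remained lower on rescaled TPM (-0.61 and -0.59, adjusted p = 0.0118 and 0.00483). Tal1, another blood progenitor factor, was at 1.91 TPM in TAM replicate 2, 8.50 to 10.2 in the other TAMs and 27.1 to 35.4 in microglia (-2.04, adjusted p = 0.00361). Pparg, the lipid-sensing receptor of lung alveolar macrophages, went the other way, at 27.2 TPM in TAM replicate 2, 1.40 to 3.12 in the other TAMs and 0.408 to 0.586 in microglia. Its log2 fold change was 1.80 (limma adjusted p = 0.0511) with all libraries and 1.20 (adjusted p = 0.00398) without TAM replicate 2. It also passed without TAM replicate 1 (adjusted p = 0.0349).

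General myeloid markers were present as the labels imply. All 7 were at 1 TPM or more in every library, with sums of 7639 to 10730 in TAMs and 9299 to 10580 in microglia. The members of the sum moved in opposite ways. On TPM 3 were higher and 3 lower in TAMs, against 8.22% and 56.4% of all genes. On rescaled TPM 4 were higher and 2 lower, against 24.6% and 25.1%. Itgam, which encodes the CD11b protein that the beads bind, was at 150.1 to 233 TPM in TAMs and 625 to 655 in microglia, so that the groups did not overlap. Its log2 fold change was -1.755 (limma adjusted p = 0.000112) on TPM and -1.04 (adjusted p = 0.00601) on rescaled TPM. Tyrobp and Fcer1g, signalling adaptors of myeloid receptors, and Aif1, which encodes the marker IBA1, were higher, at 0.94, 0.85 and 0.70 (adjusted p = 0.00489, 0.00551 and 0.00795) on TPM and at 1.66, 1.57 and 1.42 (0.00272, 0.00413 and 0.00159) on rescaled TPM. The number of genes at 1 TPM or more was 12683 to 14242 in TAMs and 14375 to 16619 in microglia. Sequencing depth cannot be had from TPM, and no counting error is given.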

How the data were processed

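The samples were 8 RNA-seq libraries, 5 of TAMs and 3 of cortex microglia, grouped by their titles. Cells were freed with papain and DNase, myelin was removed, CD11b beads captured the cells and Trizol gave the RNA, per the labels' protocols. Per the file headers, the authors deposited a TPM value per gene and library, together with the DESeq2 mean signal, log2 fold change and unadjusted p-value of their own comparison. The submitters' processing notes name mm10, FastQC and DESeq2. Aligner, quantifier, annotation release and strandedness: not given in the sources used here. A further 3 unnamed columns were not used.

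Genes at 1 TPM or more in at least 3 libraries (15262) were tested in R 4.3.3 by limma 3.58.1, with an intensity trend and all libraries in 1 fit, on log2(TPM + 1), with Benjamini-Hochberg adjustment over these genes and a threshold of 0.05. Fold changes are on that scale, which understates the change of low genes. The second fit first scaled each library to equal Spi1. On simulated data (15262 genes, 200 changed, each varying independently, no common shift) the test found 50.6% of the changes of log2 1, 85% of those of log2 2 and 98.2% of those of log2 4, and 11 of its 160 calls were false. Depth is unknown, so no counting error is given. Alternatives covered the scaling, filter, pseudocount, age, a replicate block, the trend, the reference gene and leaving out libraries.

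The 9 factors and the gene lists were chosen with earlier results of these data known. The naming rule takes the 9 factors, any gene of the lists (at least the largest called rise and fall of each) and the 3 most alike genes per factor. Marker genes come from lists of cell type markers. A gene that the lists held is not reported here.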

Additional observations from a re-analysis of the deposited data

Results flagged for a closer look

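A set of 60 genes was checked, which holds the 9 factors but leaves out some of the genes named above. In each the 5 TAM libraries were searched for 1 library far from the other 4 on log2(TPM + 1). The gap to the nearest library had to be above 0.71 of the whole range. Chance gives about 1 such case in 20 genes, 11.4% of all tested genes showed one, and 12 were found here. In 9 of them the library was TAM replicate 2: it was far below the others for Sall1 (1.755 TPM), Sall3 (0.189 TPM), Tal1 (1.91 TPM), Sparc (45.7 TPM), Golm1 (27.7 TPM), P2ry12 (65.0 TPM) and Mlxipl (1.76 TPM), and far above them for Pparg (27.2 TPM) and Retnlg (132 TPM). Of all tested genes, 1.31% were far below and 1.09% far above in this library. The 60 genes include Sparc, Mlxipl and Golm1, which are among those nearest in profile to Sall1 and Sall3 and share this library's low value by their choice. In TAM replicate 5, Cebpg (25.8 TPM) and Gatad2b (18.8 TPM) were far above the other TAM libraries, as were 7.10% of all tested genes, and Fcer1g (1181 TPM) was far below them. Markers of the granule lineage and Hedgehog tumors were also highest in that TAM library, with a sum of 73.4 TPM against 16.1 to 21.9 in the other TAMs. Their part in these values was not tested.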

How the results depend on the processing

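The count of factors lower in TAMs was 8 on TPM and 2 on rescaled TPM, against 56.4% and 25.1% of all genes. It was 2 in the authors' deposited comparison (21.7% of genes) and 4 when the 20 most abundant genes were left out of the scaling. The count of higher factors was 0 on TPM, 1 on rescaled TPM and 2 in the authors' comparison, against 8.22%, 24.6% and 30.6% of genes. Leaving out 1 library at a time gave 4 to 8 lower on TPM (4 without microglia replicate 3, 5 without microglia replicate 2) and 2 to 4 lower and 0 to 2 higher on rescaled TPM, alternatives added after seeing the data (4 lower without TAM replicate 2, 2 higher without microglia replicate 1). Relative to Spi1 the count of 6 lower ranged from 4 to 7, and relative to Ptprc it was 6. Of the 106 tested genes of the lists without markers, 22 were negative on TPM and positive on rescaled TPM. Of the same 60 genes the sign changed in some setting for 5. Their values are given on rescaled TPM, then in the authors' comparison, then over the leave-one-out fits on both scales. Spi1 had 0.59, 0.68 and -0.199 to 0.708, and Runx1 had 0.29, 0.39 and -0.495 to 0.37. Cbfb had 0.36, 0.47 and -0.403 to 0.423, and Irf8 had -0.03, 0.12 and -0.851 to 0.135. Irf9 had 0.41, 0.59 and -0.438 to 0.524. Spi1 was also at 0.037 scaled to coding genes and 0.21 without the 20 most abundant genes, where Irf9 was at 0.039. Genes named above but outside the 60 changed sign as well. Tgfbr2 went from -0.18 on TPM to 0.53 on rescaled TPM, and Lyn from -0.18 to 0.54. The other genes nearest in profile to Spi1 and those nearest to Runx1 also went from negative to positive. With age as a covariate the log2 fold change of Sall1 went from -2.78 to -1.35 and that of Sall3 from -2.03 to -1.15, further than on rescaled TPM (-2.09 and -1.42). The cause of these changes was not tested. Of 234 values of the 9 factors on TPM under alternatives, 140 kept their direction and side of the threshold, 68 kept the direction and lost the call, and 26 changed sign. Relative to Spi1, 103 of 120 were kept, 15 lost the call and 2 gained it. Same-numbered libraries of the groups had correlations of their deviations from the group means of 0.15, 0.0139 and -0.0507. These showed no sign of pairing, but with so few libraries they cannot tell whether same-numbered libraries were handled together. With the replicate block, over replicates 1 to 3, 8 factors were lower and 0 higher on TPM, and 6 and 0 relative to Spi1. Shares over all genes are not given for the replicate block, the Ptprc reference or the scaling without the 20 most abundant genes. They are also not given for most fits without 1 library. The counts of factors in those fits therefore cannot be set against the shift of all genes.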
